A study of Mus musculus with 9 samples.

Results

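The B lineage and plasma cell genes described here are 34 genes of the antibody-producing arm of the immune system, chosen by symbol and read in the olfactory mucosa of mice treated with dexamethasone, a synthetic glucocorticoid. A probe named for the gene was matched for 31 of the 34, and the brightest probe of each gene, by its mean over the 9 arrays, stands for it. Ighm, Cd38 and Vpreb2 were matched to no probe and are not analysed here. The 31 genes are among 19084 named genes and 23631 features (named genes plus unnamed probes) on the array.

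All animals were male wild-type C57BL/6 mice of 6 to 8 weeks, 27 in 3 groups of 9, and all were injected. Control mice were given saline over 2 weeks. D1 mice were given 1 mg/kg dexamethasone into the abdominal cavity for 1 day, and WK2 mice had the same dose daily over 2 weeks, so that D1 and control also differ in the length of injection. Each group has 3 arrays, taken from samples picked for their expression of olfactory marker protein, and the labels do not say whether 1 array holds 1 mouse or several; p-values therefore measure only the spread between these samples. RNA was labelled with a Cy5 dye and read in 1 colour, and the values are the authors' intensities on a linear scale, which compare 1 probe across arrays but not 1 probe with another.

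B cells arise from progenitors that switch on the factors E2A (Tcf3), EBF1 and PAX5, cut and join their immunoglobulin genes with the RAG recombinase, and test the new heavy chain with a surrogate light chain made of the VPREB and lambda5 (Igll1) proteins. Mature B cells carry a B cell receptor whose signal passes through CD79A and CD79B. Plasma cells, their secreting descendants, rely on BLIMP1 (Prdm1), IRF4 and XBP1, and in mucosal tissue such as the nose they settle beside glands and release IgA that is joined by the J chain. In bulk tissue RNA, fewer cells of a type and less RNA per cell cannot be told apart.

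The arrays carry the labelled tissue's marks: the summed intensity of 5 mature olfactory neuron markers (Omp, Adcy3, Gnal, Cnga2 and Gng13) was 861137 to 960495 in control, 766772 to 1057208 in D1 and 1067984 to 1074544 in WK2. That sum is led by Omp, for which the samples were picked, and its members differed in direction in WK2, with log2 differences of 0.60 for Omp and 0.52 for Gng13 against -0.58 for Adcy3 and -0.44 for Gnal, none of which passed an adjusted p of 0.05. Array medians over all probes were 1202 to 1447. Relative to the control mean, all features had a median log2 difference of 0.03 in D1 and 0.14 in WK2, and the medians of gene groups below are to be read beside these.

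The sequences shown first are the 250 bases before the annotated start of 5 genes picked by their p in WK2 against control: the 3 members that were higher in WK2 at an unadjusted p under 0.05 (Vpreb1, Igll1 and Dntt) and the 2 lower members of the smallest p (Spib and Cd22). They are RefSeq sequences of mouse assembly GRCm38.p6, printed 5′ to 3′ along the gene's own strand. Capitals mark matches to the 5 motifs described below, and matches to other motifs are left in lower case. Vpreb1 lies at chr16:16869256-16869505 and Igll1 at chr16:16863986-16864235, both on the minus strand. Dntt lies at chr19:41029025-41029274 on the plus strand. Spib lies at chr7:44532072-44532321 and Cd22 at chr7:30879029-30879278, both on the minus strand.
Vpreb1: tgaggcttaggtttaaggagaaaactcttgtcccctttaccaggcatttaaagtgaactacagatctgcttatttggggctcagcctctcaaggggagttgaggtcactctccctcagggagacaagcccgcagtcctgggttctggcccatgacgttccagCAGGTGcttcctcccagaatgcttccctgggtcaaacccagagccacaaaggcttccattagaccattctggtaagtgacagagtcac
Igll1: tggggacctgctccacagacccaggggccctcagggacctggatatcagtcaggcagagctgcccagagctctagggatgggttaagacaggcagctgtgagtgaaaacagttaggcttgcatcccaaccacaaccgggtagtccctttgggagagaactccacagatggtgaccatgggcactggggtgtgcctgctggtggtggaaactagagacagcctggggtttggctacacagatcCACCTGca
Dntt: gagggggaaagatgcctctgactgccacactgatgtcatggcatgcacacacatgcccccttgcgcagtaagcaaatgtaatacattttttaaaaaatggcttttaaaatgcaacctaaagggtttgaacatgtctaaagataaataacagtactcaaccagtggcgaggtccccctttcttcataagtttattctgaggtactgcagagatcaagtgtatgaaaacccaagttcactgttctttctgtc
Spib: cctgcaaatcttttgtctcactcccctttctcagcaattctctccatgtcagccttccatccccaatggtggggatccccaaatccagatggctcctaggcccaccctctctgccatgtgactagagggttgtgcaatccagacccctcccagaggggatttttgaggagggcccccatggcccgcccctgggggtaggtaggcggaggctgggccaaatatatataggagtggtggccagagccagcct
Cd22: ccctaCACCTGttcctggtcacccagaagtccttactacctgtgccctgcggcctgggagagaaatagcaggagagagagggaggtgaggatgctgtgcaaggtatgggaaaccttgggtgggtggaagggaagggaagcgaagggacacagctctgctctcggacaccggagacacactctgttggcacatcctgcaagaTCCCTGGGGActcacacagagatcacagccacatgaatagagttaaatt

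The motifs marked were searched on both strands by their letters. The E2A E-box, CAGGTG, stood in 15 of the 28 member genes that have a window (53.6%) and in 19.4% of 27025 genes with a window of the same length; among the printed sequences it is in Vpreb1, Igll1 and Cd22. The EBF1 motif, TCCC and GGGA with any 2 bases between them, was in 1 member, Cd22, and in 0.914% of all genes. The octamer ATGCAAAT, read by the OCT proteins with which POU2AF1 works, was in Blnk and Vpreb3 and in 1.81% of all genes. The PU.1 and Spi-B motif, GAGGAAGT, was in Cd37 and Cd72 and in 2.79% of all genes, and the full glucocorticoid receptor motif, AGAACA and TGTTCT with any 3 bases between them, was in none of the 28 and in 0.0111% of all genes. The 5 were marked out of 13 motifs searched, the windows were looked at with the gene results known, and a match of letters is a description, not a site. No marked motif lies in the Dntt and Spib windows. Of the 8 motifs not marked, the purine box AGAGGAA was in 28.6% of members and 9.85% of all genes. The Ikaros motif TGGGAA was in 28.6% and 24.1%, Cd22 among the members. The glucocorticoid receptor hexamer TGTTCT was in 10.7% and 18.2%, Dntt among the members. The letters CCCAGGG were in 21.4% and 11%, with Vpreb1, Igll1, Spib and Cd22 among the members. The TATA box TATAAA was in 14.3% of each, and the unfolded protein response element TGACGTG in 3.57% and 1.85%. The STAT and IRF motifs were in no member and in 8.13% and 0.233% of all genes.

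Vpreb1 has a near-identical copy, Vpreb2, elsewhere on chromosome 16, so the Vpreb1 probe may read both genes. The last 106 bases of the Vpreb1 window match a stretch of the Vpreb2 window in all but 2 positions (98.1% identity). In Vpreb2 the stretch lies farther before the annotated start. Both are shown with the differing bases in capitals, for Vpreb1 at chr16:16869256-16869361 on the minus strand and for Vpreb2 at chr16:17980315-17980420 on the plus strand.
Vpreb1: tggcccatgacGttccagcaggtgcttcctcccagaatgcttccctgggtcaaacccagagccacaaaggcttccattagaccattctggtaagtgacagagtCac
Vpreb2: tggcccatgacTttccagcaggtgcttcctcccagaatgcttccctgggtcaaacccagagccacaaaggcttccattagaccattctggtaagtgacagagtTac

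No B lineage or plasma cell gene passed an adjusted p of 0.05 in any of the 3 comparisons. The share of all features that passed (limma, Benjamini-Hochberg adjustment over 23631 features) was 0% in D1 against control, 1.61% in WK2 against control and 0.0931% in WK2 against D1, so a list of 31 genes with 0 passing is not apart from the background. At an unadjusted p under 0.05 the members' counts were 1 of 31 (3.23%) in D1 against control, 10 of 31 (32.3%) in WK2 against control and 6 of 31 (19.4%) in WK2 against D1. The same shares over all features were 2%, 29.7% and 19.2%. The members' median log2 difference was -0.02 in D1, with 14 above and 17 below the control mean, and -0.15 in WK2, with 15 above and 16 below. It was -0.09 between WK2 and D1.

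**Figure D1:**
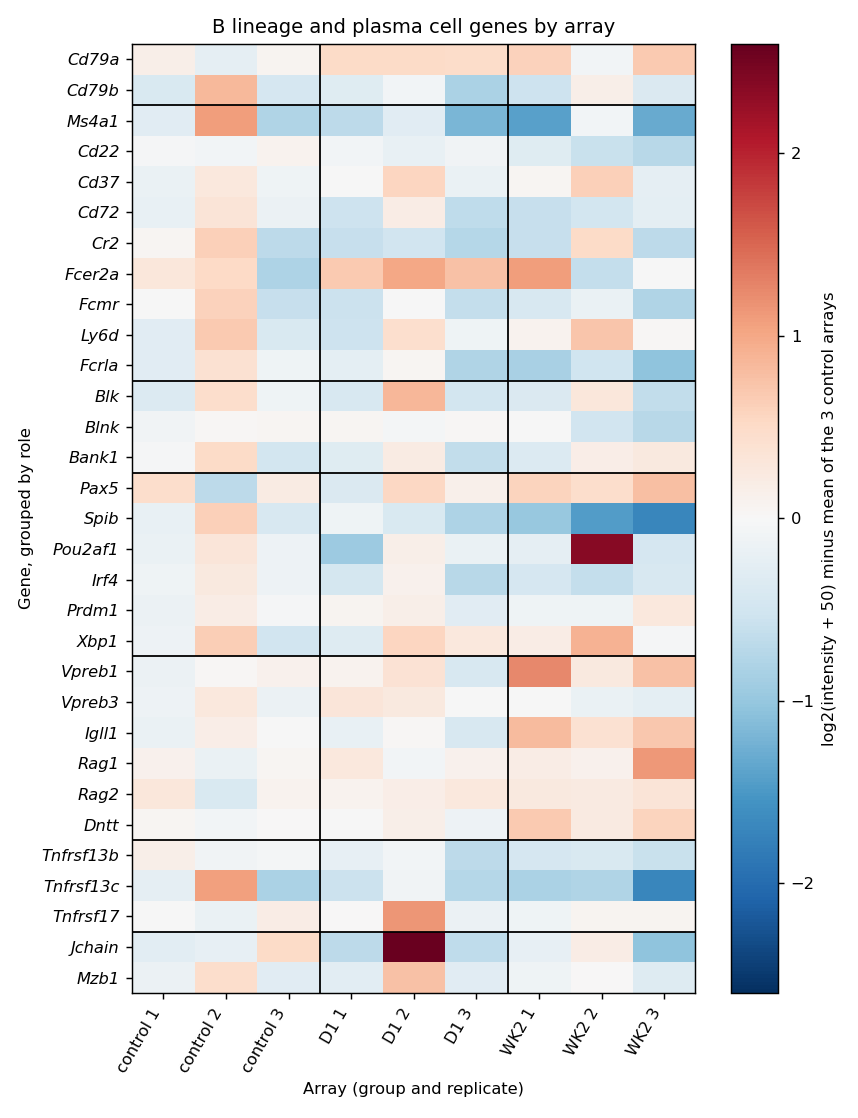
Each row is 1 of the 31 B lineage and plasma cell genes, grouped by role with black lines, and each column is 1 array; the colour is log2(intensity + 50) minus the mean of the gene's 3 control arrays. The darkest cells are Jchain on D1 replicate 2 and Pou2af1 on WK2 replicate 2, and the rows of Vpreb1, Igll1 and Dntt are red on the 3 WK2 arrays while Spib is blue there.

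Many of these genes were highest on the same array number in each group. Replicate 2 held the highest of the 3 values for 20 of the 31 members in control (64.5%, beside 28.3% of all features), for 25 in D1 (80.6%, beside 36.8%) and for 14 in WK2 (45.2%, beside 27.9%). It was highest in all 3 groups for 12 of 31 members (38.7%), against 842 of all 23631 features (3.56%). The 12 are Cd79b, Ms4a1, Cd37, Cr2, Fcmr, Ly6d, Fcrla, Blk, Pou2af1, Xbp1, Tnfrsf13c and Mzb1. They hold 6 of the 9 co-receptors and surface proteins and 0 of the 6 genes of the surrogate light chain and recombination group. Over replicates 1 and 3 of each group alone, an alternative chosen after the data were seen, 0 members were called in each comparison, and the members' median log2 difference was -0.14 in D1 against control, -0.04 in WK2 against control and 0.06 in WK2 against D1. The count of 12 was made after the values were seen and carries no test, and the labels do not say that a replicate number links arrays of different groups.

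Neutrophil and erythroid markers were highest on replicate 2 in control and D1 but not in WK2. The summed intensity of 9 of 9 neutrophil markers listed was 174242 to 464497 in control and 269926 to 836388 in D1, with replicate 2 the highest each time and 8 and 9 of the markers highest there. In WK2 the sum was 362723 to 516475 and only 1 of the 9 markers was highest in replicate 2. The 4 erythroid markers measured, of 7 listed, summed to 103151 to 231931 in control and 92753 to 249799 in D1, with all 4 highest in replicate 2 of both groups. In WK2 they summed to 149482 to 313996 and 0 of the 4 were highest in replicate 2. T and NK markers (7 of 9 measured) summed to 10683 to 12874, 9236 to 12021 and 7760 to 10368 in the 3 groups, with the highest sum on replicate 2 each time, and 2, 6 and 3 of the 7 markers were highest there. Macrophage markers (6 of 6) summed to 48795 to 52521, 40426 to 66922 and 42555 to 62809, and 2, 6 and 0 of the 6 were highest on replicate 2. No measured marker of these lists was at or below 0, and the part of such cells in the members' values was not tested.

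The spread within groups was wide for this list. The pooled within-group SD of the members had a median of 0.42 on the log2 scale, against 0.25 over all features, and 23 of the 31 members lay above that 0.25. Jchain (1.17), Pou2af1 (0.97) and Ms4a1 (0.75) had the widest spreads, at the 99.7, 99.3 and 98.0 percentiles of all features. Cd22 was at the other end with 0.13, at the 11.4 percentile.

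Of all members, Jchain had the array that stood farthest above the others of its group. Jchain, whose product joins IgA and IgM into polymers, read 7043, 7343 and 12013 on the control arrays, 5312, 50953 and 5398 on the D1 arrays and 7310, 9786 and 4079 on the WK2 arrays. D1 replicate 2 thus stood 9.44-fold above the next D1 array, and the other D1 arrays lay within the range of the WK2 arrays. A second, dimmer Jchain probe gave the same picture, with 338, 2194 and 258 in D1, 381, 576 and 463 in control and 320, 341 and 285 in WK2. The log2 difference in D1 was 0.41 ± 0.75 (SE, n = 3 against 3), and it turned to -0.67 without D1 replicate 2. In WK2 it was -0.36 against control.

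Mzb1, an endoplasmic reticulum chaperone of IgM assembly, read 2991, 4618 and 2718 in control, 2773, 5691 and 2703 in D1 and 3075, 3365 and 2632 in WK2. Replicate 2 was the highest in each group and the groups overlapped. The log2 difference in D1 was 0.06 ± 0.30, and -0.29 without D1 replicate 2. Tnfrsf17 (BCMA), the survival receptor of plasma cells, read 432, 1009 and 382 in D1, where replicate 2 was 2.34-fold above the next array, and 373 to 499 in control and 394 to 456 in WK2. Its log2 difference in D1 of 0.33 came to -0.07 without that array. The products of Jchain, Mzb1 and Tnfrsf17 are all used by antibody-secreting cells. Prdm1, Xbp1 and Irf4, on which plasma cells rely, were only 1.05-fold, 1.21-fold and 1.57-fold above the next array on D1 replicate 2. Blk, a kinase of B cells and not of antibody-secreting cells, stood 2.78-fold above the next array there, at 582. Genes of other lists did so too, among them Ccl28 (5.13-fold), Pigr (3.7-fold) and the T cell marker Cd3d (3.49-fold). The source of the high values on this array was not tested.

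Pou2af1 (OCA-B), a coactivator of OCT proteins at immunoglobulin promoters, had its high value elsewhere. It read 2026, 2884 and 2090 in control, 1165, 2550 and 2049 in D1 and 1961, 12132 and 1683 in WK2. WK2 replicate 2 was 6.19-fold above the next WK2 array, and the other 8 arrays lay between 1165 and 2884. The log2 difference in WK2 against control was 0.57 (adjusted p = 0.542, limma), and it turned to -0.33 without WK2 replicate 2. Jchain and Mzb1 on that array, at 9786 and 3365, did not stand apart in the same way.

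**Figure D2:**
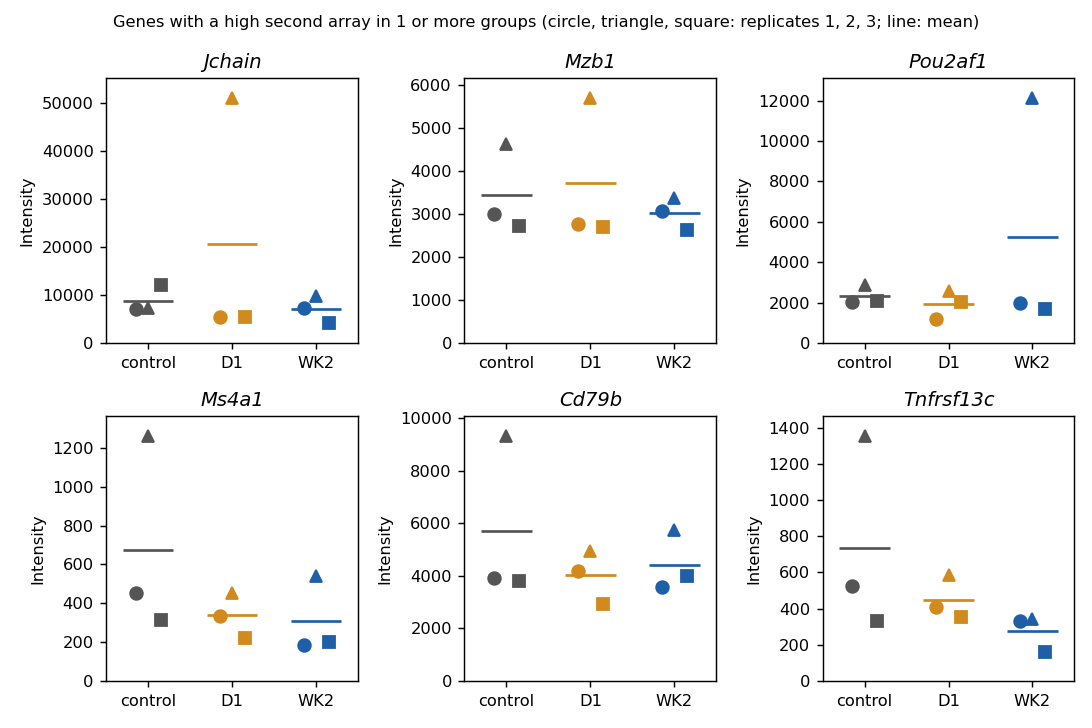
Intensity of Jchain, Mzb1, Pou2af1, Ms4a1, Cd79b and Tnfrsf13c on each of the 9 arrays, on linear axes that start at 0, with circle, triangle and square for replicates 1, 2 and 3 and a line at the group mean. The triangle is far above the other symbols for Jchain in D1, for Pou2af1 in WK2 and for Ms4a1, Cd79b and Tnfrsf13c in control.

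The 2 measured chains of the B cell receptor complex differed in which arrays were high. Cd79a, the alpha signalling chain, read 2837, 2175 and 2687 in control, 3607, 3633 and 3581 in D1 and 3872, 2428 and 4102 in WK2. The 3 D1 arrays lay close together and above all control arrays, while WK2 replicate 2 fell among the controls. The log2 difference of Cd79a in D1 was 0.49 ± 0.21, the smallest p of any member in that comparison (unadjusted p = 0.0374, adjusted p = 1.0, limma). Cd79b, the beta chain that works as a pair with it, read 3935, 9322 and 3821 in control, 4197, 4943 and 2936 in D1 and 3566, 5748 and 3976 in WK2. Its log2 difference was -0.40 in D1 and -0.26 in WK2, and without control replicate 2 it was 0.02 and 0.16, so its sign rests on that array.

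Among co-receptors and surface proteins, Cd22 had the smallest p after 2 weeks. Cd22, a sialic-acid-binding inhibitory receptor of B cells, read 14173, 13897 and 15560 in control, 13853, 12778 and 13691 in D1 and 11641, 9751 and 8756 in WK2. All WK2 arrays lay below all control and D1 arrays, and all D1 arrays lay below all control arrays. The group means were 14543 ± 892, 13441 ± 579 and 10050.0 ± 1465 (SD, n = 3). The log2 difference was -0.54 ± 0.15 in WK2 against control (adjusted p = 0.0682) and -0.43 ± 0.15 in WK2 against D1 (adjusted p = 0.191, limma), so neither passed.

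Fcrla, an intracellular Fc receptor-like protein of B cells, was dim, at 120, 227 and 144 in control, 126, 167 and 71 in D1 and 67, 96 and 51 in WK2. All 3 WK2 arrays were below all control arrays, and D1 overlapped both groups. The log2 difference in WK2 was -0.80 ± 0.26 (adjusted p = 0.0903, limma), on a scale that understates the change of dim genes. The WK2 values of Fcrla were near or below the 10th percentile of those arrays (101, 92 and 95), so they are close to the floor. Ms4a1 (CD20), the surface protein most used to mark B cells, read 454, 1261 and 312 in control, 336, 453 and 222 in D1 and 184, 539 and 199 in WK2. Its groups overlapped, and its log2 difference in WK2 of -0.93 moved to -0.39 without control replicate 2.

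Fcer2a (CD23), the low-affinity IgE receptor, had the largest positive D1 difference of all members, 0.82 ± 0.43 (unadjusted p = 0.0853, limma). Its brighter probe read 1714, 2007 and 780 in control, 2271, 2841 and 2407 in D1 and 3015, 890 and 1394 in WK2, so D1 lay above control without overlap. Its dimmer probe did not show this, with 576, 752 and 448 in control and 502, 533 and 529 in D1, a log2 difference of -0.14. The 2 probes of Fcer2a thus disagree in sign. The remaining surface genes had overlapping groups in D1, and Cd72, an inhibitory C-type lectin, was 2829 to 4067 in control and 2119 to 2685 in WK2 without overlap. Cr2 (CD21), a complement receptor of B cells, was 128 to 393 in control, 122 to 152 in D1 and 128 to 352 in WK2, with log2 differences of -0.61 and -0.27. Fcmr, the IgM Fc receptor, was 979 to 2305, 965 to 1485 and 856 to 1333. Both overlapped control in both treated groups.

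Cd37, a tetraspanin of B cells, was 2445 to 3327 in control, 2433 to 4071 in D1 and 2313 to 4223 in WK2. Ly6d, which marks committed early B lineage cells and is also made by some epithelia, was 5253 to 11246, 4759 to 9440 and 7088 to 11535. In both genes each group's highest value was on replicate 2 and the groups overlapped. Over the 9 co-receptors and surface proteins the median log2 difference was -0.33 in D1 and -0.44 in WK2, with 7 and 6 of the 9 below the control mean and 0 passing the adjusted threshold. Without control replicate 2 the medians were -0.13 and -0.15, with 6 and 5 of the 9 below. The D1 median was also -0.13 without D1 replicate 3 and -0.52 without D1 replicate 2, and the WK2 median was -0.29 without WK2 replicate 3.

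The signalling group of Blk, a SRC-family kinase, Blnk, the adaptor that links SYK to phospholipase C, and Bank1, a scaffold of the same pathway, had a median log2 difference of -0.02 in D1 and -0.24 in WK2. Left out in turn, single arrays moved these medians to between -0.45 and 0.02 in D1 and between -0.41 and -0.01 in WK2, the highest both without control replicate 2. Blk was 224 to 431 in control and 175 to 377 in WK2, and Bank1 was 285 to 606 and 310 to 502, both with overlap. Blnk read 9332, 10080 and 10303 in control, 10313, 9523 and 10089 in D1 and 9832, 7005 and 6004 in WK2. Replicates 2 and 3 of WK2 were the lowest of the 9 arrays and replicate 1 was among the controls. The log2 difference was -0.41 ± 0.18 (adjusted p = 0.167, limma).

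Spib showed the smallest p of any member in WK2 against control. Spib encodes an ETS factor of the PU.1 family that B cells and plasmacytoid dendritic cells use. It read 938, 1676 and 791 in control, 998, 812 and 601 in D1 and 520, 365 and 297 in WK2, so every WK2 array was below every control and D1 array. The means were 1135 ± 474 in control, 804 ± 199 in D1 and 394 ± 114 in WK2 (SD, n = 3). The log2 difference was -1.37 ± 0.30, or 2.59-fold lower, with adjusted p = 0.0522 (limma), just outside the threshold; it was past the threshold in 6 of 21 alternative settings and ranged from -1.59 to -1.07 as each array was left out. Against D1 it was -0.95 ± 0.30 (adjusted p = 0.172). The 3 plasmacytoid dendritic markers measured, of 5 listed (Siglech, Bst2 and Ccr9), were summed at 3854 to 4986 in control, 5132 to 7507 in D1 and 5638 to 6696 in WK2. In WK2 against control Siglech (log2 difference 0.11) and Bst2 (0.35) overlapped control and Ccr9 (0.71) did not. The part of these cells in the Spib values was not tested.

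The other factors did not move as a group. Irf4, used in B cell activation and again in plasma cells, read 390, 518 and 382 in control, 295, 462 and 237 in D1 and 301, 262 and 305 in WK2, a log2 difference in WK2 of -0.49 ± 0.22 (adjusted p = 0.162, limma). Its WK2 arrays were below all control arrays. Pax5, the factor that holds B cell identity, read 848, 358 and 710 in control and 930, 845 and 1065 in WK2, with overlap, and a log2 difference of 0.60 (adjusted p = 0.21). Prdm1, the repressor that drives plasma cell fate, differed by 0.02 and stayed between 984 and 1484 on all arrays.

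Xbp1 followed the replicate 2 pattern more than the groups. It encodes the unfolded protein response factor that secretory cells of many kinds use, glands included. It read 82392, 140182 and 64316 in control, 71992, 133703 and 110166 in D1 and 103384, 169852 and 88148 in WK2. Replicate 2 was the highest array of each group, the groups overlapped, and the log2 difference in WK2 was 0.35. Over the 6 transcription factors the median was -0.17 in D1 (-0.29 to -0.04 as single arrays were left out) and 0.19 in WK2 (-0.13 without WK2 replicate 2, 0.05 without control replicate 3).

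The surrogate light chain and recombination genes of early B cells had a median log2 difference of 0.49 after 2 weeks, beside 0.14 for all features. Of the 6 measured, 5 were above the control mean, as 62.7% of all features were. None passed the adjusted threshold. Dim features lay higher in WK2 as a class. The 25th percentile of the arrays was 201 to 276 in control and 284 to 303 in WK2. Without the dimmest 50% of features the median over the rest was 0.0064. The control means of Rag2, Rag1 and Dntt were 93.9, 151 and 270, so 0.14 is not a background matched for brightness. Igll1 (lambda5), the constant-like part of the surrogate light chain, read 673, 869 and 756 in control, 662, 775 and 557 in D1 and 1384, 1024 and 1262 in WK2. All WK2 arrays lay above all 6 others, with means of 766 ± 98.5, 665 ± 109 and 1223 ± 183 (SD, n = 3). The log2 difference was 0.64 ± 0.18 against control (adjusted p = 0.0692) and 0.83 ± 0.18 against D1 (adjusted p = 0.116, limma), the smallest p of any member against D1.

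Vpreb1, the variable-like part of the surrogate light chain, read 680, 780 and 818 in control, 812, 995 and 555 in D1 and 1862, 910 and 1322 in WK2. WK2 lay above control without overlap, though replicate 2 of WK2 was below D1 replicate 2. The log2 difference in WK2 was 0.75 ± 0.27 (adjusted p = 0.108, limma). Dntt (TdT), the polymerase that adds bases at recombined joints, read 283, 253 and 273 in control, 265, 307 and 240 in D1 and 462, 324 and 425 in WK2. All WK2 arrays were above all others, and the log2 difference was 0.49 ± 0.16 both against control (adjusted p = 0.0918) and against D1 (adjusted p = 0.18). A dimmer Dntt probe, near the pseudocount at 44 to 63 in control and 59 to 79 in WK2, gave 0.20.

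The recombinase genes followed less clearly. Rag1 read 165, 129 and 159 in control and 179, 167 and 389 in WK2, where replicate 3 was 2.17-fold above the next array, and the log2 difference of 0.48 (adjusted p = 0.222, limma) moved to as little as 0.15 with 1 array left out. Rag2 read 58 to 123 in control and 115 to 129 in WK2, a difference of 0.28. Vpreb3, a chaperone-like relative of Vpreb1 that is also used in mature B cells, was the exception, at 17751, 23653 and 17475 in control, 24260, 23326 and 19239 in D1 and 19210, 17118 and 16220 in WK2. Its WK2 arrays lay below all D1 arrays, and its difference from control was -0.15. All 6 kept their direction under the 3 other scalings of the arrays, but under quantile normalization Dntt came to 0.26, Rag1 to 0.22 and Rag2 to 0.05. On D1 arrays the 6 genes had a median of 0.06, near that of all features.

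**Figure D3:**
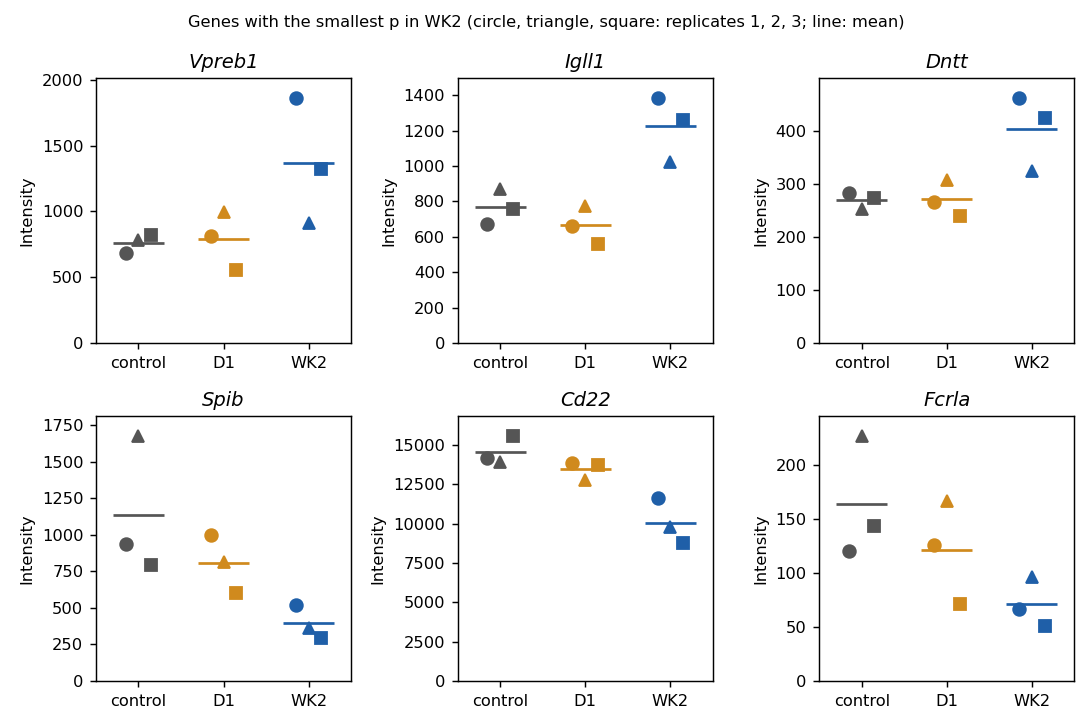
Intensity of the 6 genes Vpreb1, Igll1, Dntt, Spib, Cd22 and Fcrla on each array, on linear axes from 0, with circle, triangle and square for replicates 1, 2 and 3 and a line at the group mean. In WK2 the 3 genes of the upper row lie above all control arrays and the 3 of the lower row below them, while the D1 arrays of Vpreb1, Igll1, Dntt, Spib and Fcrla overlap control.

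The survival receptors bind BAFF and APRIL, the ligands on which peripheral B cells and plasma cells live. Tnfrsf13c (BAFF receptor) read 526, 1354 and 330 in control, 411, 585 and 353 in D1 and 333, 341 and 159 in WK2. Control and WK2 overlapped, and the log2 difference of -1.10 ± 0.43 (adjusted p = 0.133, limma) moved to -0.57 without control replicate 2. Tnfrsf13b (TACI) was dim, at 97, 74 and 77 in control, 64, 76 and 33 in D1 and 48, 51 and 39 in WK2, with WK2 below control without overlap and a log2 difference of -0.47 ± 0.18 (adjusted p = 0.121). Its WK2 values lay below the 10th percentile of those arrays (101, 92 and 95), close to the floor. The median over the 3 receptors was -0.47 in WK2 and -0.32 in D1, the latter 0.07 without control replicate 2.

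Counted by arrays that do not overlap, 3 members were apart from control in D1 (9.68%, beside 10.1% of all features). Cd79a and Fcer2a were higher (4.92% of all features were) and Cd22 lower (5.19%). In WK2 10 members were apart from control (32.3%, beside 37.6%), with Vpreb1, Igll1, Rag1 and Dntt higher and Cd22, Cd72, Fcrla, Spib, Irf4 and Tnfrsf13b lower. Between WK2 and D1 6 were apart (19.4%, beside 31.4%), with Igll1 and Dntt higher in WK2 (18.7% of all features) and Cd22, Spib, Vpreb3 and Tnfrsf13c lower (12.6%). Both directions together, the members' shares lie below the background in each comparison. By direction in WK2 against control, 12.9% of the members were higher (23.8% of all features) and 19.4% lower (13.8%), and at an unadjusted p under 0.05 9.68% were higher (17.3%) and 22.6% lower (12.4%). In WK2 the 4 higher members all belong to the surrogate light chain and recombination group, and the 6 lower ones are surface proteins, factors and a survival receptor. The 3 comparisons share groups, so their values are given side by side and are not independent.

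**Figure D4:**
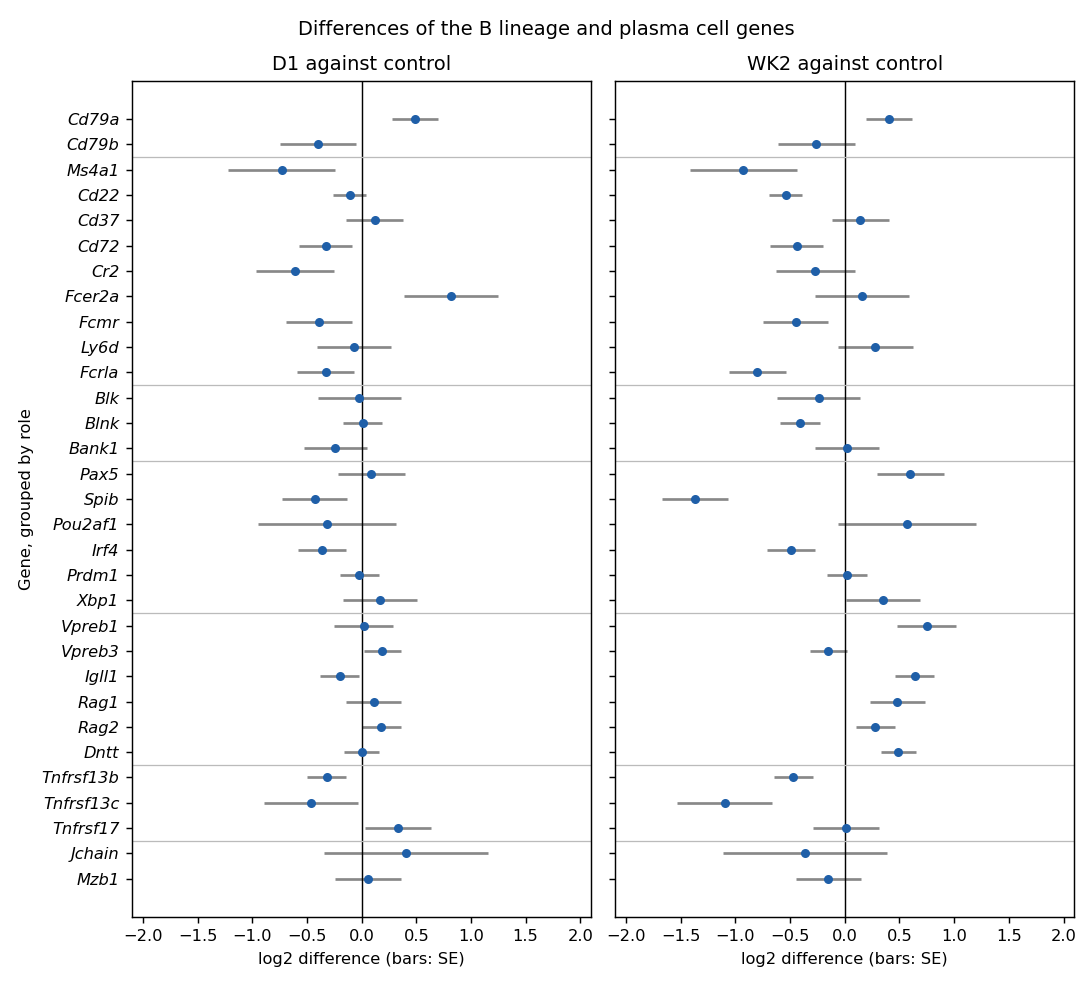
Log2 differences from control of the 31 genes (points) with their standard errors (bars) from limma, for D1 on the left and WK2 on the right, with grey lines between roles. In WK2, Spib (-1.37) and Tnfrsf13c (-1.10) lie farthest to the left and Vpreb1 (0.75) and Igll1 (0.64) farthest to the right; no gene passed the adjusted threshold.

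Genes that work with the members were read from 3 further lists. Of 28 B cell companions (other B cell receptor signalling and B lineage factors), 25 were measured, and their median log2 difference was -0.08 in D1 and -0.09 in WK2. In WK2 1 of them fell and 0 rose at adjusted p under 0.05, where 1.18% of all features fell and 0.432% rose. Tcf3, which encodes E2A, the factor whose E-box is marked above, read 8202, 11848 and 9551 in control, 8351, 8436 and 8751 in D1 and 5406, 4544 and 3279 in WK2. The log2 difference was -1.17 ± 0.20, or 2.24-fold lower (adjusted p = 0.0413, limma), and the WK2 arrays lay below all others. E2A acts in many tissues besides B cells. The call was lost when any 1 control or D1 array or WK2 replicate 2 or 3 was left out, with adjusted p between 0.0645 and 0.148, and the log2 difference stayed between -1.33 and -0.97. Ebf1, which encodes EBF1, read 29446, 30907 and 30856 in control, 28348, 21880 and 27523 in D1 and 18745, 21735 and 19078 in WK2. Its WK2 arrays lay below all others and its D1 arrays below all control arrays, but it did not pass the adjusted threshold. The part of B cells in the Ebf1 values was not tested.

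Of 18 niche ligands and receptors, which attract B cells and plasma cells or keep them alive, 16 were measured, with a median of 0.08 in D1 and 0.12 in WK2 and 0 passing. The smallest p values in WK2 belonged to Tgfb1 and Il7. Tgfb1, a cytokine that steers B cells toward IgA, read 2937, 3441 and 3134 in control and 2212, 1934 and 1962 in WK2 (log2 difference -0.63 ± 0.15, adjusted p = 0.0571, limma). Il7, the growth factor of early B cells in mice, read 1428, 1006 and 1328 in control, 897, 1313 and 1769 in D1 and 2107, 3915 and 2061 in WK2 (1.02 ± 0.30, adjusted p = 0.0752). The WK2 arrays of this probe were above all others, as they were on a second Il7 probe (1.05). The remaining, dimmer Il7 probe read 470, 323 and 381 in control and 476, 341 and 514 in WK2, with overlap and a log2 difference of 0.16. Ccl28 and Pigr, named above for D1 replicate 2, were also high on WK2 arrays. Ccl28 read 4499, 7796 and 4822 in control, 3190, 18560 and 3619 in D1 and 12485, 15790 and 11815 in WK2. Its WK2 arrays lay above all control arrays, as those of 23.8% of all features did. Pigr read 11122, 16097 and 7143 in control and 37243, 41185 and 15160 in WK2, with overlap.

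The secretory pathway list, 21 of 21 measured, had a median of -0.03 in D1 and 0.12 in WK2, with 1 gene risen in WK2 and 0 fallen. Hspa5 (BiP), the chaperone of the endoplasmic reticulum that holds unpaired heavy chains and serves all secretory cells, read 67655, 49749 and 64799 in control, 56216, 60386 and 60831 in D1 and 90956, 113911 and 141427 in WK2. The log2 difference was 0.92 ± 0.19, or 1.89-fold higher (adjusted p = 0.0494, limma), and the WK2 arrays lay above all others. As with Tcf3, the call was lost without any 1 control or D1 array and without WK2 replicate 2 or 3, with adjusted p from 0.0689 to 0.148. In the same arrays Jchain and Mzb1 did not pass, with differences of -0.36 and -0.15.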

How the data were processed

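Olfactory mucosa RNA of 9 samples, 3 per group, was measured on 1-colour arrays. The authors deposited 1 table of intensity values on a linear scale, 26423 probes by 9 arrays, and their normalization is not given in the sources used here; 8 to 18 values per array lie below 0. No further normalization was applied in the main fit. The table gives no batches, so slide and scan could not be tested, and the number of arrays limits the precision. Probes were named through the platform annotation, updated by gene ID through RefSeq's table for GRCm38.p6: 21876 had 1 symbol, 0 several and 4547 none, and 21825 had their gene ID there. Other listed genes were not matched either, the 13 immunoglobulin constant genes among them.

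The deposited intensity values were tested as log2(intensity + 50), so folds are on that scale and come out too small for dim genes. Limma 3.58.1 in R 4.3.3 fitted all 9 arrays at once, with 3 comparisons and Benjamini-Hochberg adjustment over 23631 features within each; "passed", "called", "rose" and "fell" mean an adjusted p under 0.05. An exact permutation test of 3 against 3 cannot go below 0.1, so none is given. The script was tested on simulated data. The members, roles, lists and the rule for named genes were chosen with earlier results of these data known. That rule names all members. It gives all 9 values for the 4 of the smallest p per comparison, the 2 of the largest mean and the 2 of the widest range. From each further list it names up to 4 genes past the threshold, else the 2 of the smallest p. Members and other listed genes described beyond it were chosen after their values were seen. Alternatives were 3 scalings, 2 pseudocounts, 2 filters on dim features, all probes of a gene averaged, other variance models, the 2 groups compared only, a replicate block, each array left out in turn and, added after seeing the data, replicates 1 and 3 only.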

Additional observations from a re-analysis of the deposited data

How the results depend on the processing

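The number of members called in D1 against control was 0 in every alternative run. In WK2 against control it was 0 in the main setting, 1 under quantile normalization, cyclic loess and without the dimmest 25% (Spib each time, with 26 members tested in the last), 2 under median centring (Cd22 and Spib), 1 with a pseudocount of 500 (Cd22), 4 with array weights (Cd22, Spib, Igll1 and Dntt), and 0 to 1 as each array was left out (Spib, adjusted p = 0.0409, limma, without WK2 replicate 1). In WK2 against D1 it was 1 with array weights (Igll1, adjusted p = 0.0406, limma) and 0 otherwise. With array weights 134 of the 23631 features were called in WK2 against D1, beside 22 in the main setting. As arrays were left out, the members' median log2 difference ranged from -0.3 to 0.02 in D1 against control and from -0.23 to 0.08 in WK2 against control. In WK2 against D1 it ranged from -0.17 to 0.13. Each range holds both signs, so the sign of these medians is not fixed. The members' median log2 intensity, a different measure, had an SD of 0.33 between arrays of a group. The features called in WK2 against control, 380 (102 higher, 278 lower) in the main setting, were 1419 under quantile normalization, 1545 (221 higher, 1324 lower) under median centring, 682 under cyclic loess, 777 and 131 with pseudocounts of 500 and 16, 576 and 1135 without the dimmest 25% and 50%, 2738 with array weights, 0 with the 2 groups compared only and 1 to 953 as arrays were left out. Over all features, same-numbered arrays of different groups did not deviate together (correlations of -0.282 to 0.136, against -0.338 to 0.308 for other pairs). With 3 arrays per group this cannot exclude that the numbers link samples, or that a link touches only some genes. With the replicate number as a block 0 members and 0, 1 and 8 features were called in the 3 comparisons, beside 0, 380 and 22. Tcf3 and Hspa5 were called in 11 and 9 of 22 alternatives and lost the call with the 2 groups compared only (adjusted p = 0.112 for both) and with the block (0.105 for both).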
